A study of Homo sapiens with 4 samples.

Results

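A set of 10 genes of mesenchymal state and extracellular matrix was followed in A549 cells after transfection with a miR-509-3p mimic. The set held the transcription factor genes TWIST1, SNAI2 and ZEB1, the cytoskeletal and adhesion genes VIM and CDH2, and the matrix genes COL4A1, COL4A2, THBS1, FN1 and SPARC. Every probe annotated to 1 of these symbols was taken, which gave 14 of the 47320 probes on the array. Of these, 7 probes of 6 genes were detected and tested, among 16561 probes and 10239 genes tested in all.

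A549 is an epithelial cell line derived from a human lung adenocarcinoma. Cells of the first group received the miR-509-3p mimic, a synthetic form of that microRNA, and those of the second a negative control mimic, both delivered with the lipid reagent RNAiMAX. Total RNA was taken 24 hours later and hybridised to Illumina bead arrays, 2 arrays per group. The study set gene expression under the mimic against that under the control.

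A microRNA guides an Argonaute protein to messenger RNAs through its seed, the bases near its 5′ end, and paired messages are usually repressed or degraded. The mesenchymal programme is a switch by which epithelial cells loosen their junctions and gain motility. TWIST1, SNAI2 and ZEB1 are DNA-binding repressors and activators that drive it, vimentin and N-cadherin are its classical markers, and fibronectin, collagens and matricellular proteins form the matrix that such cells lay down. Carcinoma lines such as A549 can carry some of these genes together with epithelial ones.

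The mature miR-509-3p is shown because its seed defines which messages it can pair with. In RefSeq (GRCh38.p14) the same 22 bases are encoded at 3 loci of chromosome X, on the minus strand, at chrX:147258775-147258796, chrX:147259662-147259683 and chrX:147260550-147260571. The sequence is given 5′ to 3′, with the seed (bases 2 to 8) in capitals.
hsa-miR-509-3p: uGAUUGGUacgucuguggguag
Among 2545 mature entries of the same table, only the 3 of miR-509-3p itself held this seed. Pairing of the seed with the transcripts of these genes was not analysed here.

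The arrays were alike in depth of signal, with 34.5% of probes detected on each mimic array, and 33.7% and 34.7% on the control arrays. A detection p-value below 0.01 counted as detection on that array, and testing required it on 2 or more of the 4 arrays. Among 12 markers of airway and alveolar epithelium, 7 were detected, including CDH1, EPCAM, KRT7, KRT8 and KRT19, while KRT18, NKX2-1, SFTPA1, SFTPB and SFTPC were not. The summed normalized linear signal of the 7 detected markers was 40296 to 41133 on mimic arrays and 51259 to 54536 on control arrays. That sum is weighted to the brightest markers, KRT8 and KRT7, whose log2 differences (mimic minus control) were -0.31 and -0.91. Over the 7 markers the median log2 difference was 0.01, and 3 lay below 0. Of 7 genes listed as high in A549 and with a probe, 6 were detected. Their summed normalized linear signal was 350458 to 353277 on mimic arrays and 345589 to 350672 on control arrays. Their log2 differences ran from -0.10 to 0.22, with a median of 0.002. Of 10 fibroblast markers, 8 were not detected, among them COL1A2, COL3A1, DCN and LUM. The summed normalized linear signal of the other 2, COL1A1 and THY1, was 385 to 431 on mimic arrays and 259 to 270 on control arrays. Of 8 endothelial markers ESAM was detected, at 182 to 201 on mimic arrays and 400 to 426 on control arrays. Of 7 leukocyte markers with a probe, CD14 and CD68 were detected, with a sum of 6677 to 6938 on mimic arrays and 4067 to 4241 on control arrays, and PTPRC was not. The part of these shifts in the results was not tested. The labels name A549 cells alone for every array, so these sums are levels in cultures of that line. In RNA from a whole culture, fewer cells that express a gene and less of its RNA per cell cannot be told apart. Whether the arrays of a group stand for separate cultures is not in the labels, and the p-values reflect array-to-array spread, possibly technical, and precision is limited by how few arrays there were.

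Of the 6 genes tested, TWIST1, VIM, CDH2 and COL4A2 were lower with the mimic, THBS1 was higher, and COL4A1 did not pass. After background correction TWIST1 changed most, to 1.93-fold lower, and the other 4 changed between 1.35-fold and 1.46-fold. Without that correction the gap was smaller, with log2 differences of -0.58 for TWIST1 and 0.48 for THBS1. All 7 probes tested were detected on all 4 arrays, so none entered through 1 group alone. Over all genes tested, 16.5% were called lower and 18.0% higher, or 34.4% in either direction, with 0.05 as the limit for the limma p-value adjusted over genes by Benjamini-Hochberg. The groups did not overlap for 5 of the 6 genes, and for 72.9% of all genes tested. The calls of 5 in 6 genes and of 34.4% of all genes are given side by side without a test.

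**Figure D1:**
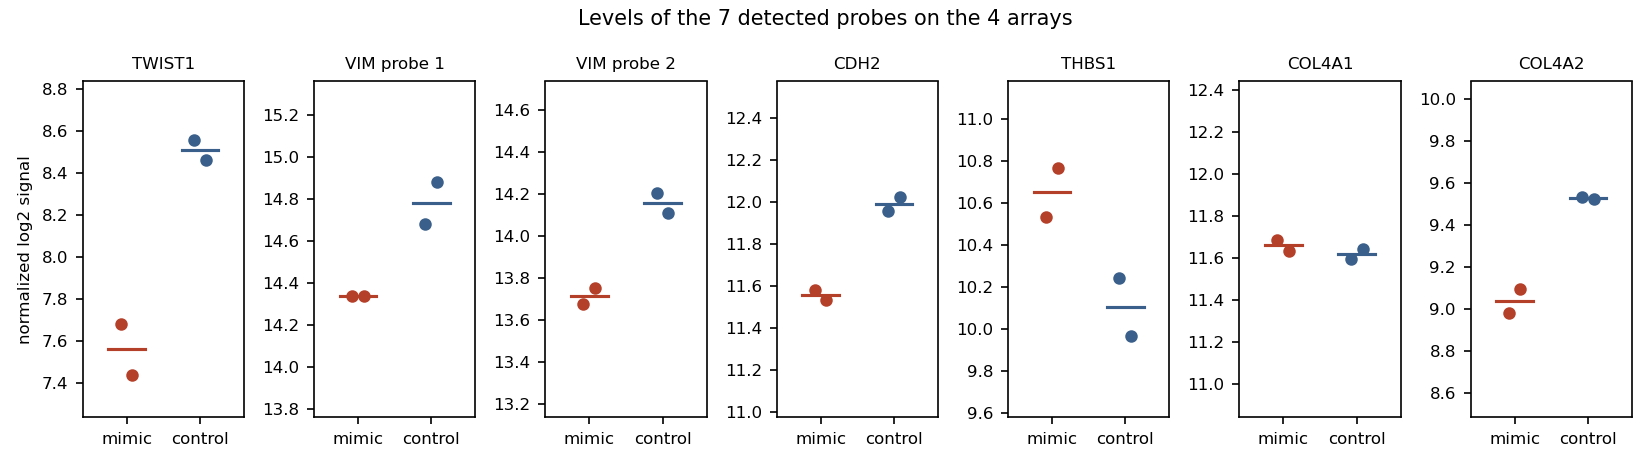
Normalized log2 signal of the 7 detected probes on each array, with the miR-509-3p mimic (red, left) and the control mimic (blue, right). Points are arrays, bars are means of 2 arrays, and each panel spans the same number of log2 units; the points of the groups overlap for COL4A1 only.

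Among the transcription factors, TWIST1 was the member with a measurable level. TWIST1 encodes a basic helix-loop-helix factor that represses CDH1 and promotes the mesenchymal state. Its probe (ILMN_1672908) had deposited signals of 349 and 330 on the mimic arrays, against 521 on each control array. On the normalized log2 scale these were 7.68 and 7.44 with the mimic and 8.56 and 8.46 in the controls. Both mimic arrays lay below both control arrays, and the difference between any mimic array and any control array was between -1.12 and -0.78. The mean was 7.56 ± 0.17 with the mimic and 8.51 ± 0.07 in the controls (SD, n = 2 each). TWIST1 thus fell by 0.95 log2 units, with an SE of 0.11 (95% interval -1.25 to -0.65; limma, adjusted p = 0.00730 after Benjamini-Hochberg adjustment). Of all 10239 genes, 465 (4.54%) had a difference this low or lower. The size of the TWIST1 fall moved with the treatment of background, to a log2 difference of -0.58 without background correction and -0.60 in the authors' processed values. TWIST1 was called in each of 14 alternative settings, with limma adjusted p-values up to 0.0454 after Benjamini-Hochberg adjustment.

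SNAI2 and ZEB1 encode zinc finger repressors of epithelial genes, and neither had a probe that passed the detection filter. The first SNAI2 probe (ILMN_1655740) had signals of 204 and 229 on the mimic arrays and 220 and 253 on the control arrays. Its detection p-values were 0.204 and 0.0571 with the mimic and 0.0844 and 0.0104 in the controls, so control 2 came nearest to detection and just missed it. The second SNAI2 probe (ILMN_2082585), at 152 and 167 with the mimic and 137 and 136 in the controls, had detection p-values of 0.538 or more on all arrays. Neither SNAI2 probe was detected on any array, and no fold is given.

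ZEB1 has 1 probe (ILMN_1762231), which read 144 and 146 on the mimic arrays and 190 and 182 on the control arrays. Detection p-values were 0.697 and 0.679 with the mimic and 0.262 and 0.351 in the controls. The ZEB1 groups did not overlap, but the probe was detected on none of the 4 arrays, so no fold is given. When all probes were tested without the detection filter, neither was called (limma adjusted p after Benjamini-Hochberg adjustment 0.0717 for ZEB1 and 0.425 for SNAI2). These values compare readings that did not pass detection on any array, so they say nothing of a change in either gene.

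**Figure D2:**
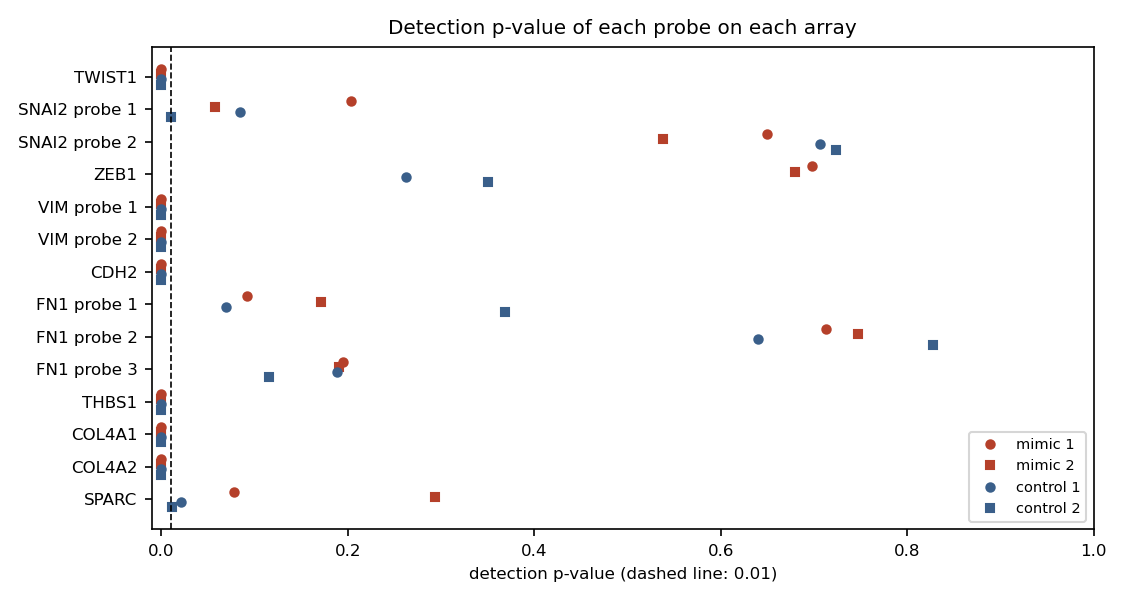
Detection p-value (horizontal axis, 0 to 1) of each of the 14 probes on the mimic arrays (red) and control arrays (blue), with circles for replicate 1 and squares for replicate 2. The 7 probes of TWIST1, VIM, CDH2, THBS1, COL4A1 and COL4A2 sit at 0 on all arrays, and those of SNAI2, ZEB1, FN1 and SPARC all lie above the dashed threshold of 0.01.

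VIM encodes vimentin, the intermediate filament protein of mesenchymal cells, and was measured by 2 probes. The brighter probe (ILMN_1782538) had signals of 19181 and 21217 on the mimic arrays and 26029 and 31584 on the control arrays. Normalized log2 levels were 14.34 on each mimic array and 14.68 and 14.88 on the control arrays, without overlap. VIM by this probe fell by 0.44 ± 0.10 on the log2 scale (95% interval -0.71 to -0.18; limma, adjusted p = 0.0310, Benjamini-Hochberg), which is 1.36-fold lower. After normalization the mimic arrays differed less from each other (SD 0.00065) than the control arrays did (SD 0.14) on this probe, with 2 arrays in each group. On the second probe the SDs were 0.05 with the mimic and 0.07 in the controls.

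The second VIM probe (ILMN_2058251) had signals of 12560 and 14270 on the mimic arrays and 18807 and 19186 on the control arrays. Its log2 levels were 13.68 and 13.75 with the mimic and 14.20 and 14.11 in the controls, and it also fell by 0.44, with an SE of 0.08 (limma, adjusted p = 0.0233, Benjamini-Hochberg over 16561 probes). The 2 probes thus gave log2 differences of -0.44 each. In that fit 29.7% of all probes were called, as were 6 of the 7 probes of this set, and those 6 were also without overlap between groups, as were 68.6% of all probes. With limma and Benjamini-Hochberg adjustment over genes, VIM kept its call without control 1 (adjusted p = 0.0387). It lost it without control 2 (limma, adjusted p = 0.0856), mimic 1 (0.137) or mimic 2 (0.136).

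CDH2 encodes N-cadherin, the adhesion molecule of neural and mesenchymal cells. Its probe (ILMN_1779228) read 2997 and 3175 on the mimic arrays and 4102 and 4605 on the control arrays. Normalized log2 levels were 11.58 and 11.53 with the mimic and 11.95 and 12.03 in the controls, and the groups did not overlap. CDH2 fell by 0.43 ± 0.08 (95% interval -0.64 to -0.22), which is 1.35-fold lower (limma, adjusted p = 0.0187, Benjamini-Hochberg). The CDH2 difference was -0.42 in the authors' processed values. Leaving out any array ended the CDH2 call, with limma adjusted p-values (Benjamini-Hochberg) of 0.0903 without mimic 1, 0.106 without mimic 2, 0.0515 without control 1 and 0.0699 without control 2.

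CDH2 and VIM lay close together among all genes, with 14.5% and 14.2% of genes as low or lower. CDH1, the epithelial cadherin that TWIST1, SNAI2 and ZEB1 are known to repress, also fell, by 0.29 ± 0.07 (limma, adjusted p = 0.0439, Benjamini-Hochberg). Its log2 levels were 11.59 and 11.58 with the mimic and 11.87 on each control array. The CDH1 call was lost in 8 of 14 alternatives, with limma adjusted p-values (Benjamini-Hochberg) of 0.0781 with median scaling, 0.160 with no detection filter and 0.0629 with detection p-values below 0.05 on 2 or more arrays as the filter. Without mimic 1, mimic 2, control 1 or control 2 it was 0.160, 0.174, 0.116 or 0.120 (limma, Benjamini-Hochberg). TWIST1, SNAI2 and ZEB1 bind E boxes, and the letters CANNTG, which read the same on both strands, were found in 1 of 2 RefSeq promoter windows of CDH2 and in 0 of 1 of VIM. Each window ran from 250 bases before to 50 bases after a gene start, and 68.7% of all 35116 windows held these letters.

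COL4A1 and COL4A2 encode the α1 and α2 chains of type IV collagen, which assemble together in basement membranes. The genes lie head to head on chromosome 13, with 126 bases between their RefSeq starts (GRCh38.p14, chr13:110307158-110307283). This stretch is shown because both genes start at its ends, so that any element in it lies before both. COL4A1 is read from its left end on the minus strand and COL4A2 from its right end on the plus strand. The plus strand is given 5′ to 3′, with the letters CCAAT and GGGCGG in capitals, each searched on both strands (ATTGG and CCGCCC on the other) and not overlapping.
COL4A1 to COL4A2: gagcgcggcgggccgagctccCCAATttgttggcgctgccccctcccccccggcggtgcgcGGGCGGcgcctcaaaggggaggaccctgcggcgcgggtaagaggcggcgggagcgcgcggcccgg
CCAAT occurred 1 time, at bases 22 to 26, and GGGCGG 1 time, at bases 62 to 67, counted from the COL4A1 end. Of all 35116 promoter windows, 21.1% held CCAAT and 34.6% held GGGCGG, on either strand, within the 126 bases before the start.

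Of this pair COL4A2 passed the test and COL4A1 did not. COL4A2 (ILMN_1724994) had signals of 629 and 712 on the mimic arrays and 883 and 920 on the control arrays. Its log2 levels were 8.98 and 9.09 with the mimic and 9.53 and 9.52 in the controls, with both mimic arrays below both controls. COL4A2 fell by 0.49 ± 0.08 on the log2 scale (95% interval -0.71 to -0.28), which is 1.41-fold lower (limma, adjusted p = 0.0150, Benjamini-Hochberg). Its difference was -0.40 in the authors' processed values and -0.39 without background correction. Leaving out any array ended this call, with limma adjusted p-values (Benjamini-Hochberg) of 0.0900 without mimic 1, 0.0633 without mimic 2, 0.0574 without control 1 and 0.0567 without control 2.

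COL4A1 (ILMN_1653028) had signals of 3213 and 3388 on the mimic arrays and 3206 and 3552 on the control arrays. Its log2 levels were 11.69 and 11.63 with the mimic and 11.60 and 11.65 in the controls, and the groups overlapped. The COL4A1 difference was 0.04 ± 0.08 on the log2 scale (95% interval -0.16 to 0.25; limma, adjusted p = 0.710, Benjamini-Hochberg). The interval does not reach the COL4A2 estimate of -0.49. With median scaling in place of quantile normalization the COL4A1 difference was -0.022, so it had no settled sign.

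To set the chains against each other within arrays, the COL4A1 log2 level was subtracted from that of COL4A2, a comparison chosen after the values were seen. The result was -2.71 and -2.54 on the mimic arrays and -2.06 and -2.12 on the control arrays. Only the change in this quantity can be read, since levels of different probes are not comparable. The change was -0.53, with means of -2.63 ± 0.12 with the mimic and -2.09 ± 0.04 in the controls (SD, n = 2 each). Both mimic arrays were lower than both control arrays, which is the most extreme of 6 splits (exact permutation test, two-sided p = 0.333, the smallest this design allows). In the authors' processed values the change was -0.44. A test that could not pass says nothing of whether the chains responded differently.

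**Figure D3:**
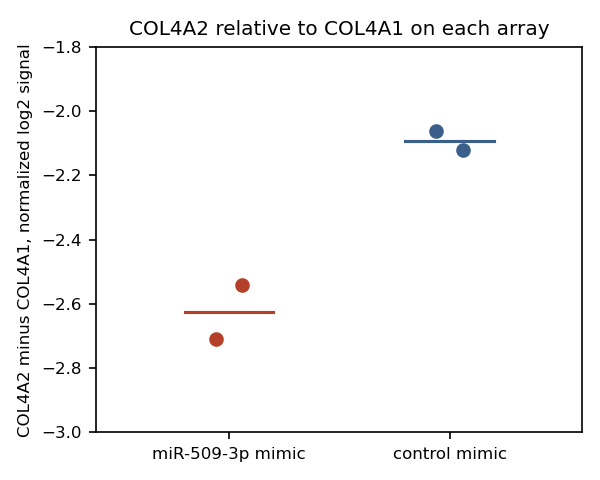
COL4A2 minus COL4A1 normalized log2 signal on each array, for the miR-509-3p mimic (red, left) and the control mimic (blue, right), with bars at the means of 2 arrays. The mimic arrays, at -2.71 and -2.54, lie below the control arrays, at -2.06 and -2.12.

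THBS1 was the member that rose. It encodes thrombospondin-1, a matricellular glycoprotein that activates latent TGF-beta and restrains the growth of blood vessels. Its probe (ILMN_1686116) had signals of 1541 and 1933 on the mimic arrays and 1344 and 1206 on the control arrays. The log2 levels were 10.54 and 10.77 with the mimic and 10.24 and 9.97 in the controls, without overlap but with wide gaps within each group (SD 0.16 with the mimic and 0.20 in the controls). THBS1 rose by 0.54 ± 0.14 on the log2 scale (95% interval 0.17 to 0.92), which is 1.46-fold higher (limma, adjusted p = 0.0445, Benjamini-Hochberg).

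The difference between a mimic and a control array was 0.29 to 0.80 for THBS1, the widest range among the 6 genes tested. Of all genes, 10.2% had a difference this high or higher. Leaving out any array ended the THBS1 call, with limma adjusted p-values (Benjamini-Hochberg) of 0.0975 without mimic 1, 0.183 without mimic 2, 0.0519 without control 1 and 0.131 without control 2. With a looser filter of detection p-values below 0.05 on 2 or more arrays, which added genes to the adjustment, it was 0.0603 (limma, Benjamini-Hochberg). Testing all probes with no detection filter ended the calls of VIM, CDH2, COL4A2 and THBS1, with limma adjusted p-values (Benjamini-Hochberg) of 0.0995, 0.0742, 0.0604 and 0.116.

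**Figure D4:**
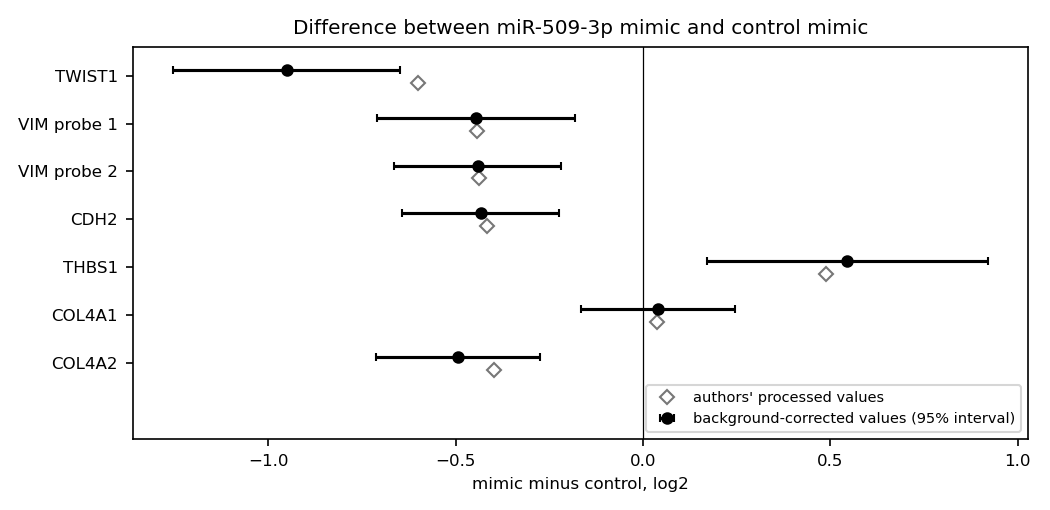
Log2 difference (mimic minus control) of the 7 detected probes. Black points are estimates from background-corrected values with their 95% interval, and open diamonds are differences in the authors' processed values; all intervals but that of COL4A1 lie on 1 side of 0, and the estimates differ most for TWIST1 (-0.95 and -0.60).

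FN1 encodes fibronectin, a matrix glycoprotein to which cells attach through integrins, and none of its 3 probes was detected. The first (ILMN_1675646) read 222 and 207 on the mimic arrays and 225 and 180 on the control arrays. The second (ILMN_1778237) read 140 and 133 on the mimic arrays and 149 and 115 on the control arrays. The third (ILMN_2366463) read 205 on each mimic array and 202 and 212 on the control arrays. In these deposited signals the groups overlapped on each probe. On the normalized log2 scale the third did not overlap, at 6.05 and 6.06 with the mimic and 6.09 and 6.18 in the controls. The lowest detection p-value of any FN1 probe was 0.0688, on control 1. FN1 thus had a probe detected on none of the arrays, and no fold is given.

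SPARC encodes a secreted calcium-binding glycoprotein that binds collagen. Its probe (ILMN_1796734) read 227 and 193 on the mimic arrays and 250 and 249 on the control arrays. Detection p-values were 0.0779 and 0.294 with the mimic and 0.0208 and 0.0117 in the controls, so SPARC was near detection in the controls and missed it on all arrays. Both mimic readings lay below both control readings. With detection p under 0.05 on at least 2 arrays as the filter, SPARC entered the test only through the control arrays, where it is high. A difference was thus built into its entry, and no p is given. SPARC was not tested under the main filter and was not called under the looser one.

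The neighbours of these genes were read from 12 lists, whose 127 tested genes included 50 that were called (39.4%, beside 34.4% of all genes). The lists also hold the 6 tested members, 5 of them called, so the 39.4% is not a share of neighbours alone. Of these 50, 5 were detected in 1 group only, so that they entered the test through the group where they are high and had to differ: CLDN3, LAMC3, LTBP2 and SPOCK1 through the controls and ADAMTS14 through the mimic arrays. The counts of each list include them, and they are described by bounds, with no p. Counts by list are descriptions, to be read beside the 34.4%. Among the transcription factors of the mesenchymal switch, 7 of 18 were tested, 2 rose, 2 fell and 3 did not pass. Besides TWIST1, FOXQ1, a forkhead factor, fell by 0.70 ± 0.08. TWIST1 acts as a dimer with E proteins, and ID proteins sequester E proteins. Of 6 such genes tested, TCF3 and TCF4, both E proteins, rose by 0.98 ± 0.08 and 0.45 ± 0.09 (TCF4 by 0.25 without background correction), and ID2 fell by 0.91 ± 0.09. The other 3, TCF12, ID1 and ID3, had log2 differences of 0.05, 0.15 and -0.07 and did not pass. ID2 also fell by its second probe, by 0.82 ± 0.09.

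Of 9 tested genes of epithelial state, 1 rose, 4 fell and 4 did not pass, with a median log2 difference of -0.29 beside 0.04 over all genes. KRT7 fell by 0.91 ± 0.09. CLDN3, a tight junction claudin, was undetected on both mimic arrays and was at least 1.91-fold lower there after background correction (log2 difference -0.58 without it). This lower bound compares the control mean with a floor, taken on each mimic array as the dimmest signal still detected there, or as the reading of the probe where that was brighter. It and the bounds given below were set on background-corrected values only. Without that correction the CLDN3 fall was smaller than its bound. MUC1 rose by 0.47 ± 0.10, but its second probe, at 0.17 ± 0.08, did not pass.

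Among 12 genes of the mesenchymal cytoskeleton and surface, 3 rose, 4 fell and 5 did not pass, with a median of -0.0073. TAGLN, an actin-binding protein, fell by 1.21 ± 0.13 (-0.80 without background correction) and the tropomyosin gene TPM1 fell by 1.05 ± 0.09, whereas TPM4 rose by 0.59 ± 0.12 (1.64 ± 0.12 by its second probe). Of 4 TPM1 probes, 2 fell, and the others, at -0.54 ± 0.19 and -0.14 ± 0.27, did not pass. Among 6 cadherins and catenins, JUP, which encodes plakoglobin, rose by 0.55 ± 0.11 by its brightest probe, and its other 2 probes, at 0.17 ± 0.25 and 0.50 ± 0.20, did not pass. Apart from CDH1, CDH2 and JUP, the 3 tested genes of that list did not pass. Of 6 intermediate filament genes and their partners, VIM fell, PLEC, which encodes the linker plectin, rose by 0.46 ± 0.11, and 4 did not pass.

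Around the collagen IV genes, 13 of 24 basement membrane genes were tested, of which 1 rose, 3 fell and 9 did not pass, with a median of 0.07. Besides COL4A2, COL18A1, which encodes the collagen that releases endostatin, fell by 0.59 ± 0.08, while the laminin gene LAMB2 rose by 0.44 ± 0.10. LAMC3, a laminin γ chain gene, was not detected under the mimic, where it was at least 1.58-fold lower after background correction. Without that correction its log2 difference was -0.33, a smaller fall than that bound. The other tested type IV collagen genes, COL4A5 and COL4A6, had differences of 0.14 ± 0.12 and 0.23 ± 0.08 and did not pass. Of 8 other collagens, COL5A2 rose by 0.49 ± 0.07 and 7 did not pass.

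Of 18 genes that modify and process collagen, 4 rose, 3 fell and 11 did not pass, with a median of 0.10. PLOD1, a lysyl hydroxylase, fell by 1.28 ± 0.11, and P3H2, a prolyl 3-hydroxylase, fell by 0.80 ± 0.08. ADAMTS14, a procollagen peptidase, was undetected in the controls and at least 1.07-fold higher with the mimic (log2 difference 0.36 without background correction).

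Among matricellular and other matrix proteins, 19 of 34 were tested, 3 rose, 7 fell and 9 did not pass, with a median of -0.09. The 7 include SPOCK1 and LTBP2, and with detection on all 4 arrays as the filter 5 fell. FSTL1, a follistatin-like relative of SPARC, fell by 2.32 ± 0.13, with log2 levels of 8.40 and 8.11 on the mimic arrays and 10.53 and 10.62 on the control arrays. SPOCK1, a proteoglycan gene of the same family, was detected on neither mimic array, and its level there was lower by at least 4.48-fold after background correction. That size moved with the treatment of background, since the SPOCK1 log2 difference was -1.32 without background correction and -1.37 in the authors' processed values. LTBP2, a latent TGF-beta binding protein gene, was also not detected under the mimic, where it was at least 1.93-fold lower after background correction. Without that correction the LTBP2 log2 difference was -0.69, a smaller fall than that bound. SMOC1, another SPARC relative, which the naming rule did not select and which was chosen after its values were seen, rose by 0.62 ± 0.14. SPOCK2, chosen in the same way, had a difference of -0.25 ± 0.21 and did not pass.

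Of 13 matrix proteases and inhibitors, 4 fell, 9 did not pass and 0 rose in the limma fit, also at an unadjusted p under 0.05. MMP15 fell by 0.75 ± 0.08 (-0.38 without background correction). RECK, a membrane inhibitor of metalloproteinases, fell by 0.90 ± 0.11, and by 0.82 ± 0.14 by its second probe. MMP24 fell by 1.09 ± 0.22, but was detected on 1 of the 2 mimic arrays and differed by -0.53 without background correction. Of 13 matrix receptors, 2 rose, 1 fell and 10 did not pass, with a median of 0.15. ITGA5, a chain of the fibronectin receptor, rose by 0.61 ± 0.09, the collagen receptor gene DDR1 rose by 0.43 ± 0.10 (0.64 ± 0.25 by a second probe, which did not pass) and ITGB5 fell by 0.36 ± 0.08. The limma adjusted p-values (Benjamini-Hochberg) of the genes named from these lists by the rule and detected in both groups lay between 0.00228 and 0.0439. Of 33 genes named from the lists and the cell type markers, 18 lost their call without mimic 1, 19 without mimic 2, 8 without control 1 and 10 without control 2. CD47, a receptor for thrombospondin-1, had a difference of 0.15 ± 0.09 and did not pass.

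**Figure D5:**
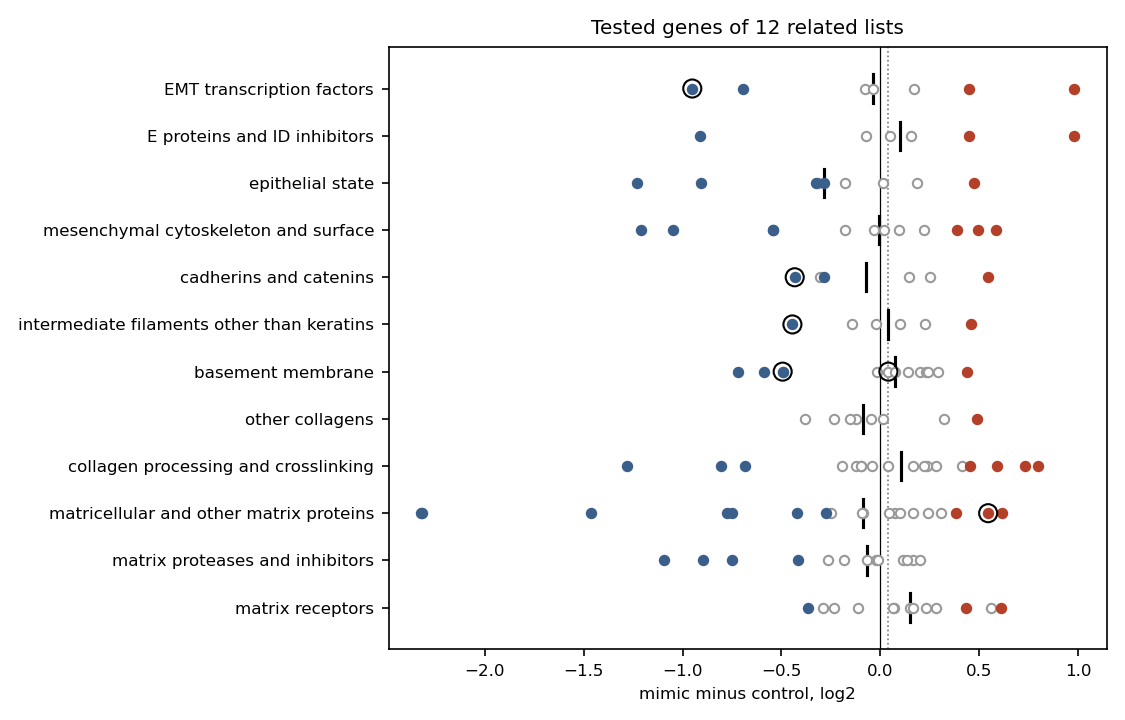
Log2 difference (mimic minus control) of the tested genes of 12 lists, with genes called higher in red, called lower in blue and not called as open grey circles; bars are list medians and the dotted line is the median of all genes (0.04). Black rings mark the members TWIST1, CDH2, VIM, COL4A1, COL4A2 and THBS1. Each list has genes on both sides of 0, and each but the matrix proteases has at least 1 called higher.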

How the data were processed

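Total RNA of A549 cells was measured on 4 Illumina bead arrays, 2 per group, grouped by the labels. The authors deposited linear intensity values per probe, with no scaling of arrays to each other, made with GenomeStudio 2009.2 per the submitters' processing notes. A detection p-value per probe and array, in steps of 1 in 770, was deposited too. The authors also deposited processed log2 values for 19069 probes, with a median of 9.42 on each array; these matched quantile-normalized log2 intensities without background correction, and the steps behind them are not stated in the sources used.

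Intensities were background-corrected by normexp using the detection p-values, quantile normalized with an offset of 16 and taken to log2 (neqc, limma 3.58.1, R 4.3.3). Of 47320 probes, 16561 were kept, those with detection p-values below 0.01 on 2 or more arrays. In the platform annotation 30113 probes had 1 gene name, 8 several and 17199 none; 30092 matched the RefSeq gene table (GRCh38.p14) and 21 kept the annotation's name. The brightest kept probe stood for its gene. The lmFit and eBayes fit ran over all kept probes (2 residual and 2.48 prior degrees of freedom), with Benjamini-Hochberg adjustment over 10239 genes, or over probes where a single probe is tested, and calls at an adjusted p under 0.05. Errors written ± are SE for differences and SD for group means.

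On simulated data with the same 10239 genes, this fit called 22 of 67 genes with a simulated log2 change of 0.5. It called 65 of 67 with 1, 66 of 66 with 2, and 7 of 10039 left unchanged. Thus 10039 of the 10239 genes were unchanged there, while 34.4% of genes were called in the measured data. Recovery with a larger share of changed genes was not tested. The simulated noise was drawn independently for each probe and array, with the variances left after the eBayes step. It was added to normalized values, so neither normalization nor effects shared across an array were tried. From each list up to 3 called genes outside the set, with no overlap between groups and the largest differences, are named. The members, lists and tests were chosen with earlier results of these data known. Alternatives covered background, scaling, the authors' values, detection filters, the variance model, the probe of a gene, the replicate number and leaving out each array.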

Additional observations from a re-analysis of the deposited data

How the results depend on the processing

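Over the 14 alternatives, values of the 10 genes' tested probes kept direction and side of the threshold in 67 cases and lost the call in 28, and 1 turned. That was COL4A1, at -0.022 with median scaling, which did not pass in any setting. TWIST1 was called in all 14 settings. Background correction, scaling, the authors' values, the variance model and the rule for several probes ended no other call among these genes. Without a filter on detection, 768 genes were higher and 961 lower with the mimic, against 1839 and 1685. Of the 10 genes, 0 were then higher and 1 lower (1 and 6 at an unadjusted p under 0.05, limma). Among their 7 probes kept by the main filter, 1 was called (6 unadjusted). Probes that entered only without that filter are not in this probe count. In the 12 lists 28 genes were called, against 50. With detection p under 0.05 on at least 2 arrays, 0 of the 10 genes were higher (1 at an unadjusted p under 0.05, limma).

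Leaving out each array in turn, on the same normalized values, gave 310 to 1140 genes higher, 607 to 1089 lower, 0 to 0 of the 10 genes higher (0 to 1 unadjusted, limma), 1 to 2 lower, 0 to 2 of their probes called (5 to 6 unadjusted, against 6 called with all arrays) and 13 to 32 list genes called. A group is then left with 1 array, assumed to vary like the other group. The labels give same-numbered arrays of the groups a common number, and do not say whether they were handled together. Their deviations from the group means correlated at -0.06, which cannot settle this with 2 arrays per group. With the replicate block, 0 of the 10 genes were higher (1 unadjusted, limma), 3 were lower, 2 of their probes were called (6 unadjusted), and 1306 genes were higher and 1328 lower. With median scaling 44.1% of calls were higher, against 52.2%. Counts within single lists moved by over 1.5 times in 115 of 336 cases. The causes of these moves were not tested. Probes near the detection limit, as those of SNAI2 and SPARC, had too little signal over background for a level.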
